A study of Arabidopsis thaliana with 6 samples.

Results

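The genes described here are 10 nuclear genes of Arabidopsis thaliana of peroxisomal fatty acid beta-oxidation, the glyoxylate cycle and the entry into gluconeogenesis. They were chosen by name, with earlier results of these data known, out of 27432 nuclear protein-coding genes. Of these genes, 18214 had assigned reads. Of the 10, 9 had a read-resolved strand and passed the filter on low counts, and MLS did not. Those described singly are LACS7, ACX1, ACX4, MFP2, AIM1, KAT2, ICL, MLS and PCK1, while counts and sums over the 9 tested members include 1 more gene. Whole seedlings of the Col 0 ecotype, taken as wild type, were grown on plates under constant white light for 1 to 2 weeks and then darkened for 48 h. The Light group (3 libraries) then received light for 6 h, and the Dark group (3 libraries) stayed in darkness for the same 6 h. All plants thus shared the 48 h without light. None of the libraries was taken at the end of the 48 h, so a fall in light cannot be told from a further rise in darkness. Words such as rose and fell therefore compare Light with Dark, not with a starting level. RNA 3′ ends were counted by 3'READS+, a method that captures and sequences the ends of polyadenylated RNA, and the design asks how light changes the amount of each RNA and the place where it ends.

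Peroxisomal beta-oxidation takes fatty acids apart in rounds that each release acetyl-CoA. Acyl-CoA synthetases activate the chains, and acyl-CoA oxidases, multifunctional proteins and thiolases carry out the steps of each round. Isocitrate lyase and malate synthase, the enzymes particular to the glyoxylate cycle, turn acetyl units into organic acids, from which phosphoenolpyruvate carboxykinase opens the way to sugar. The pathway is best known from the use of seed oil by germinating seedlings, and plants kept in long darkness also draw on it.

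The libraries held 13.20 to 13.51 M reads in Light and 13.36 to 14.53 M reads in Dark. Of 5 green shoot markers, 4 were higher in Light and 1 did not pass, and their summed level was 10688 to 12426 CPM in Light and 4365 to 5373 CPM in Dark (CPM, reads scaled to a common library size with normalization factors). Of 6 root markers, EXPA7 and GH9C1 had too few reads for their strand to be resolved. The other 4 summed to 6698 to 7859 CPM in Light and 1149 to 2099.9 CPM in Dark, nearly all of it from PYK10, a root beta-glucosidase. Of these 4, PYK10 and AGP31 were higher in Light, while PRX72 and CASPL4D1 did not pass and their groups overlapped. Markers of seed reserves and lipid droplets, relevant because seeds use this pathway, were near 0 except in Light replicate 1, where they summed to 583 reads (38.0 CPM), among them 203 of the oleosin OLEO1 and 104 of the cruciferin CRA1. The other libraries had 21 and 22 reads in Light and 6 to 18 in Dark, and 3 of the 9 seed markers had too few reads for their strand to be resolved. The part of these markers in the results was not tested. Values without Light replicate 1 therefore stand beside the member results that it moves, and the listed genes that it moves are given with the processing alternatives. In whole seedlings, fewer cells of a type and less RNA per cell cannot be told apart. Whether the 3 replicates of a group came from different plantings is not in the labels, so a p-value here rests on variation among libraries that may be no more than technical.

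The pathway's most abundant members, ACX4, PCK1 and KAT2, were far lower in Light than in Dark. AIM1 and ICL were also lower, and LACS7 was higher. By edgeR's quasi-likelihood test at an adjusted p of 0.05, 7 of the 9 tested members were lower in Light, against 35.5% of all 16774 genes tested, 1 was higher, against 37.4%, and 1 did not pass; 72.9% of all genes were called in either direction. At least 2-fold lower were 5 members, against 20.9% of all genes. The CPM of the groups did not overlap in 7 members that were lower, against 36.6% of all genes, and in 1 that was higher, against 39.2%. The median log2 change was -1.35 over the tested members and 0.04 over all genes. Since the members were chosen with earlier results of these data known, these comparisons describe them and are no test of the list. Together the 9 members summed to 1182, 1168 and 1151 CPM in Light and to 5446, 6465 and 5782 CPM in Dark. Every Light library was thus below every Dark library, with means 5.05 times apart. When libraries were scaled by their totals alone, all genes shifted by a median of 0.45 on the log2 scale towards Light, which left 5 members lower and 2 higher, the second being ACX1, while MFP2 was no longer called. The falls shrank too, while the rise of LACS7 grew (log2 change 0.98). AIM1 was then less than 2-fold lower in Light (log2 change -0.89). ACX4 (-2.91), PCK1 (-2.24), ICL (-1.74) and KAT2 (-1.58) were still more than 2-fold lower.

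**Figure D1:**
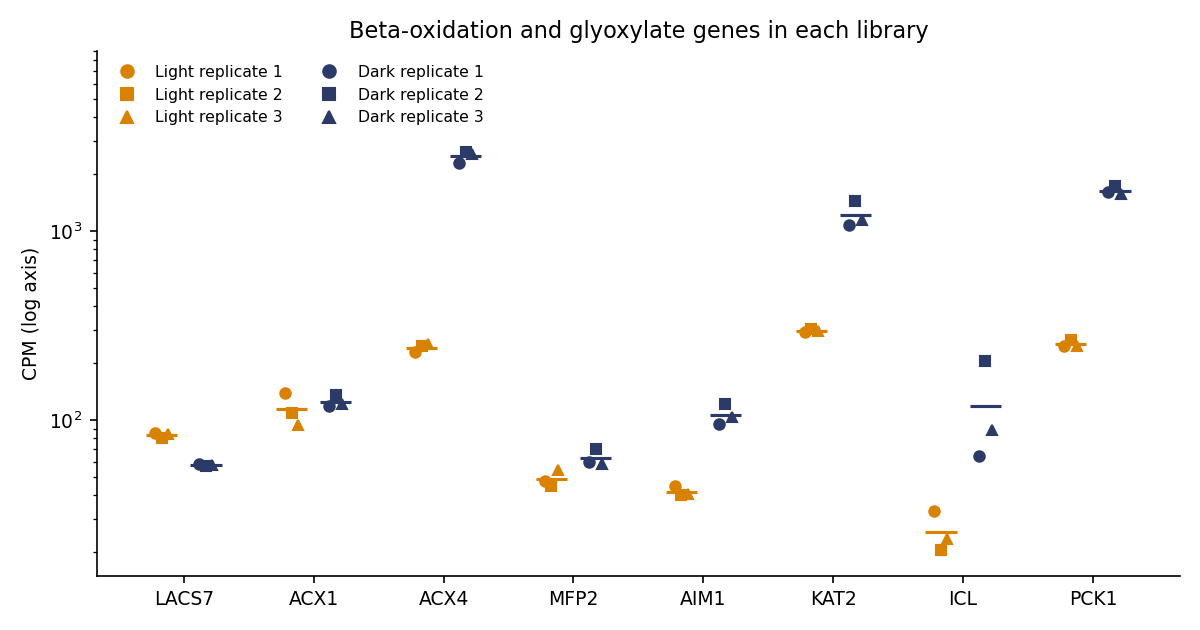
Level of 8 of the tested members in CPM on a log axis, with 1 point per library, Light on the left and Dark on the right of each gene, and bars at group means. ACX4, KAT2, PCK1, AIM1 and ICL lie well below Dark in every Light library, the groups of ACX1 overlap, and LACS7 is the gene with the Light libraries on top.

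LACS7 (AT5G27600), a peroxisomal long-chain acyl-CoA synthetase, had 85.6, 80.2 and 83.9 CPM in Light and 58.5, 56.8 and 57.9 CPM in Dark. Its replicates were tight and the groups were clearly apart, with means of 83.2 ± 2.77 CPM in Light and 57.7 ± 0.866 CPM in Dark (mean ± SD over n = 3 libraries a group, as throughout). The 1.44-fold rise passed the test (log2 change 0.53, SE 0.10, adjusted p = 2.83e-04). Under scaling by totals the rise of LACS7 was larger (log2 change 0.98, adjusted p = 1.53e-06). LACS6 (AT3G05970), the other peroxisomal acyl-CoA synthetase, moved the other way, at 103 ± 3.44 CPM in Light and 160 ± 7.06 CPM in Dark (log2 change -0.64, adjusted p = 4.86e-05), a call that was lost under scaling by totals (log2 change -0.19, adjusted p = 0.0866). The log2 ratio of LACS7 to LACS6, which does not depend on the scaling, was -0.30, -0.37 and -0.23 in Light and -1.40, -1.55 and -1.43 in Dark. LACS6 therefore had the higher count in all 6 libraries, by a smaller margin in Light.

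The acyl-CoA oxidases carry out the opening step of each round, each on a range of chain lengths. ACX4 (AT3G51840), which acts on short chains, had 228, 245 and 252 CPM in Light, against 2292, 2628 and 2563 CPM in Dark. This was the largest change among the members, 10.3-fold lower in Light (log2 change -3.37, SE 0.12, adjusted p = 2.98e-11), and the groups were far apart relative to their SDs of 12.4 and 178 CPM. Each read marks 1 RNA 3′ end, so counts need no division by gene length when genes are ranked. On that scale ACX4 ranked 617 of the 16774 tested genes in Light and 43 in Dark.

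ACX1 (AT4G16760), which acts on medium to long chains and also serves jasmonate synthesis, behaved differently. It had 139, 109 and 94.2 CPM in Light and 119, 136 and 121 CPM in Dark, so the groups overlapped. The log2 change was -0.14 ± 0.14 (SE) and did not pass (adjusted p = 0.372). Light replicate 1, the library with seed reserve transcripts, had the highest value of the 6. Without it the log2 change was -0.30 (adjusted p = 0.0493), and under scaling by totals it was 0.32 (adjusted p = 0.0412), so these data do not settle a direction for ACX1.

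Of the other 4 oxidase genes, 2 were lower in Light, 1 did not pass and ACX6 had too few reads to be tested. ACX2 (AT5G65110), a long-chain oxidase, had 58 reads in Light and 210 in Dark (log2 change -2.24, adjusted p = 3.73e-05). ACX5 (AT2G35690), a close relative of ACX1, was low in both groups, with 47 reads in Light and 82 in Dark (log2 change -1.18, adjusted p = 0.0083), and lost its call under scaling by totals (-0.73, adjusted p = 0.0864). ACX3 (AT1G06290), a medium-chain oxidase, stood at 17.5 ± 0.28 CPM in Light and 20.8 ± 0.655 CPM in Dark (log2 change -0.25, adjusted p = 0.0817), and its difference turned to 0.21 (adjusted p = 0.141) under scaling by totals. The log2 ratio of ACX4 to ACX3 was 3.67, 3.78 and 3.78 in Light and 6.79, 6.96 and 6.86 in Dark. ACX4 thus had by far the higher count of the pair in every library, by a wider margin in Dark. How reads that match related copies equally well were counted is not given in the sources used here.

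MFP2 (AT3G06860) and AIM1 (AT4G29010) are the multifunctional proteins that hydrate and then dehydrogenate the chain in the middle of each round. AIM1 had 44.8, 40.1 and 40.6 CPM in Light and 94.8, 122 and 103 CPM in Dark, a 2.55-fold difference with no overlap (log2 change -1.35, SE 0.12, adjusted p = 1.68e-07). MFP2 had 47.6, 44.7 and 54.2 CPM in Light and 59.95, 70.4 and 58.6 CPM in Dark. Its groups did not overlap either, but the gap between them was small. The log2 change of MFP2 was -0.37 ± 0.12 (SE, adjusted p = 0.0124). It lost its call without Light replicate 2 (-0.31, adjusted p = 0.0655) and turned to 0.090 (adjusted p = 0.481) under scaling by totals. The log2 ratio of MFP2 to AIM1 was 0.09, 0.15 and 0.41 in Light and -0.66, -0.79 and -0.81 in Dark, so MFP2 was the more abundant of the pair in every Light library and AIM1 in every Dark library.

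KAT2 (AT2G33150, also PED1 and listed as PKT3) is the main peroxisomal 3-ketoacyl-CoA thiolase, which cuts off the acetyl unit. It had 293, 305 and 294 CPM in Light and 1079, 1444 and 1138 CPM in Dark. The fall of 4.10-fold was large against the spread of either group (log2 change -2.04, SE 0.13, adjusted p = 4.37e-09). The other thiolase genes did the opposite. KAT1 (AT1G04710) was at 18.7 ± 1.25 CPM in Light and 4.08 ± 1.19 CPM in Dark, 4.58-fold higher in Light (adjusted p = 1.44e-07). KAT5 (AT5G48880), which encodes cytosolic and peroxisomal forms, was at 27.0 ± 4.97 CPM in Light and 1.00 ± 0.509 CPM in Dark, 26.7-fold higher in Light (log2 change 4.74, adjusted p = 1.41e-09), from 1233 reads in Light and 35 in Dark. The log2 ratio of KAT2 to KAT5 was 3.14, 3.61 and 3.60 in Light and 9.02, 10.34 and 9.75 in Dark. KAT2 was still the thiolase with the most reads in all 6 libraries.

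**Figure D2:**
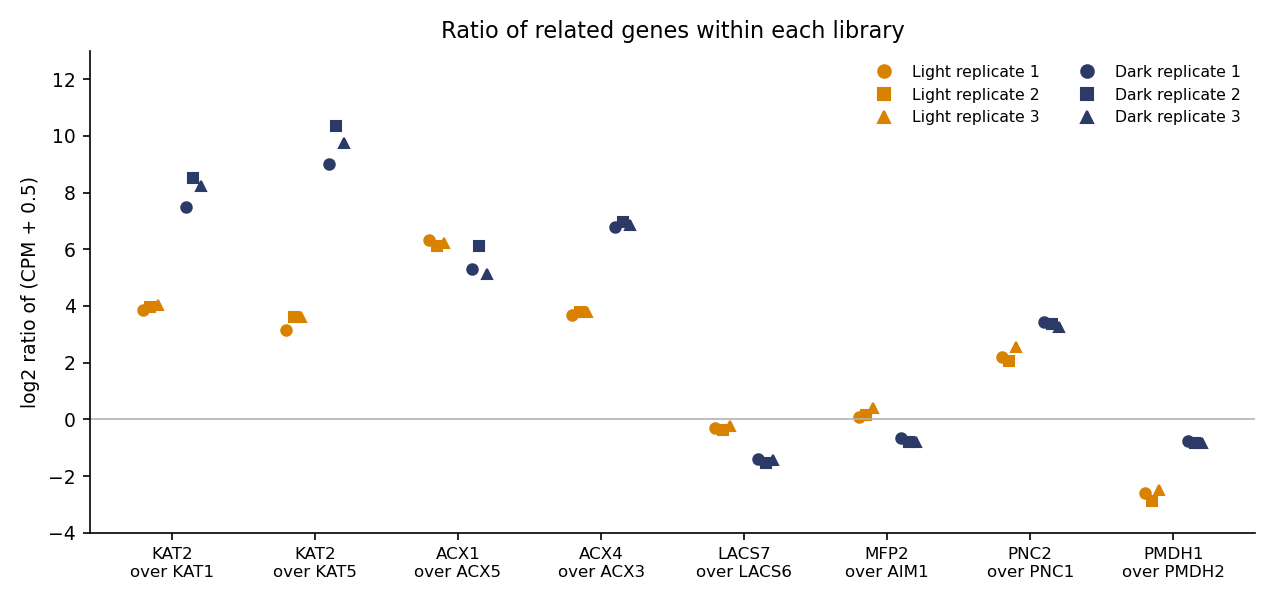
Log2 ratio of 2 related genes within each library, with 0.5 CPM added to both, 1 point per library, Light left of Dark. The Light and Dark points do not overlap in any of the 8 pairs, and the widest gaps are those of KAT2 over KAT5 and KAT2 over KAT1.

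These ratios were formed after the levels had been seen, for 8 pairs of genes. In each pair the Light and Dark libraries did not overlap, and each gave an exact two-sided permutation p of 0.1, or 0.1 after Benjamini-Hochberg adjustment over the 8, the smallest that 3 against 3 libraries allow. Separate groups were common among single genes too: CPM did not overlap in 36.6% of all genes, lower in Light, and in 39.2%, higher in Light. The share over other pairs of genes was not computed, so the count of 8 has no background to be set against. The narrowest gap was that of ACX1 over ACX5, where Light replicate 2 was at 6.11 and Dark replicate 2 at 6.10.

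ICL (AT3G21720), isocitrate lyase, had 32.8, 20.5 and 23.4 CPM in Light and 64.5, 205 and 88.0 CPM in Dark. The groups did not overlap and the test was passed (log2 change -2.22, SE 0.33, adjusted p = 3.23e-05), but Dark replicate 2 was more than the sum of the other two Dark libraries. The coefficient of variation in Dark was 63.1%, the highest of the members. Without Dark replicate 2 the log2 change was -1.58 (adjusted p = 7.77e-09), a smaller fall that still passed. Without Light replicate 1, the highest Light value, it was -2.44.

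MLS (AT5G03860), malate synthase, shares the glyoxylate cycle with ICL but was almost without reads. Within its span and 200 nt to either side there were 53 reads over all 6 libraries, 31 on the minus strand and 22 on the plus strand, so its strand could not be told from the reads and it entered no test. The minus strand had 11, 1 and 0 reads in Light and 12, 2 and 5 in Dark. The plus strand had 4, 1 and 4 reads in Light and 5, 5 and 3 in Dark. Whichever strand is the gene's, no library had more than 12 reads, where ICL had 304 to 2339.

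PCK1 (AT4G37870), phosphoenolpyruvate carboxykinase, had 245, 265 and 247 CPM in Light and 1604, 1723 and 1569 CPM in Dark. The groups were tight and far apart, and PCK1 was 6.46-fold lower in Light (log2 change -2.69, SE 0.11, adjusted p = 8.78e-11). PCK2 (AT5G65690), its paralog, was rare, with 3, 0 and 3 reads in Light and 20, 27 and 21 in Dark (log2 change -3.80, adjusted p = 2.53e-05). ACX4, KAT2 and PCK1 together made up most of the members' reads in both groups. ACX4 alone held 20.7% ± 1.33 of the members' summed CPM in Light and 42.4% ± 1.85 in Dark, while LACS7 held 7.13% ± 0.233 in Light and 0.985% ± 0.0989 in Dark.

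Around the members, 59 further genes in 7 lists were read in the same fit. Of the 56 tested, 9 rose, 30 fell and 17 missed the threshold, with a median log2 change of -0.56. Under scaling by totals the split was 22 higher and 24 lower, so the balance of directions depends on the scaling. The called share of 69.6% was close to the 72.9% of all genes. By direction, 37.4% of all genes were higher in Light and 35.5% lower, and the counts of each list are to be read beside these shares.

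All 3 gluconeogenesis genes were lower in Light, against 35.5% of all genes, with a median of -3.45, and were also lower under scaling by totals. Beside PCK2 these included PPDK (AT4G15530), pyruvate orthophosphate dikinase, at 6.63 ± 0.248 CPM in Light and 72.7 ± 6.09 CPM in Dark (log2 change -3.45, adjusted p = 4.06e-11). Of the 2 tested lipid droplet genes, SDP1 (AT5G04040), the lipase that starts the breakdown of stored oil, was lower at 18.1 ± 2.56 CPM in Light and 103 ± 21.1 CPM in Dark (log2 change -2.51, adjusted p = 5.39e-09), and AT4G24160 did not pass (log2 change -0.09, adjusted p = 0.655), with a value of 0.37 (adjusted p = 0.0608) under scaling by totals.

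Among 15 other beta-oxidation enzymes, 4 rose in Light, 6 fell and 5 missed the threshold, with a median of 0.19. Under scaling by totals 9 were higher and 4 lower, with a median of 0.65, so the balance of this list turns with the scaling. KAT5 and KAT1 had the largest rises. The largest falls were those of ECH2 (AT1G76150), an enoyl-CoA hydratase, and of IBR3 (AT3G06810), an acyl-CoA dehydrogenase-like protein of indole-3-butyric acid response. ECH2 was at 24.4 ± 1.00 CPM in Light and 65.8 ± 3.86 CPM in Dark (log2 change -1.43, adjusted p = 3.58e-08). IBR3 was at 52.9 ± 4.60 CPM in Light and 115 ± 9.10 CPM in Dark (log2 change -1.12, adjusted p = 6.57e-07).

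Of 7 tested malate dehydrogenases, citrate synthases and aconitases, 3 rose, 3 fell and 1 missed the threshold, with a median of 0.14. Under scaling by totals 4 were higher and 2 lower, with a median of 0.59. The peroxisomal citrate synthases CSY2 (AT3G58750) and CSY3 (AT2G42790) fell 7.02-fold and 3.48-fold, to 28.8 ± 4.19 and 51.4 ± 1.62 CPM in Light, against 202 ± 17.7 and 179 ± 3.65 CPM in Dark. The peroxisomal malate dehydrogenase PMDH2 (AT5G09660) rose 4.00-fold, to 229 to 275 CPM in the Light libraries, against 58.2 to 72.8 CPM in the Dark libraries. The adjusted p of these 3 genes was 4.27e-09 at most. PMDH1 (AT2G22780), outside the naming rule and shown because it is the paralog of PMDH2, was at 39.6 ± 2.33 CPM in Light and 36.0 ± 4.05 CPM in Dark and did not pass (adjusted p = 0.313), but was higher in Light under scaling by totals (log2 change 0.59, adjusted p = 3.17e-04).

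Of 4 carriers, 1 rose, 2 fell and 1 missed the threshold, with a median of -0.31. Under scaling by totals 2 were higher and 2 lower, and the median turned to 0.14. PNC2 (AT5G27520), a peroxisomal ATP carrier, was at 30.0 ± 4.54 CPM in Light and 55.7 ± 3.15 CPM in Dark (adjusted p = 1.86e-05), while its paralog PNC1 (AT3G05290) did not pass (adjusted p = 0.343) but was higher in Light under scaling by totals (log2 change 0.69, adjusted p = 0.0114). PXN (AT2G39970), a peroxisomal NAD carrier, was 1.82-fold lower (adjusted p = 2.79e-05). SFC (AT5G01340), a mitochondrial succinate-fumarate carrier, was 2.44-fold higher, at 6.57 ± 1.81 CPM in Light and 2.69 ± 0.501 CPM in Dark (adjusted p = 4.35e-04).

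Of 22 peroxins and peroxisomal proteases, which build the organelle and import its enzymes, 13 fell in Light, 1 rose and 8 missed the threshold, with a median of -0.85. The called share of this list was 63.6%, below the 72.9% of all genes, of which 35.5% fell. Under scaling by totals 11 were lower and 7 higher, with a median of -0.39. PEX13 (AT3G07560), a membrane protein of the import machinery, stood at 147 ± 24.2 CPM in Light and 698 ± 115 CPM in Dark (log2 change -2.24, adjusted p = 8.96e-09). PEX11E (AT3G61070), of the family that promotes peroxisome division, had 197 reads in Light and 582 in Dark (log2 change -1.95, adjusted p = 1.06e-06).

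**Figure D3:**
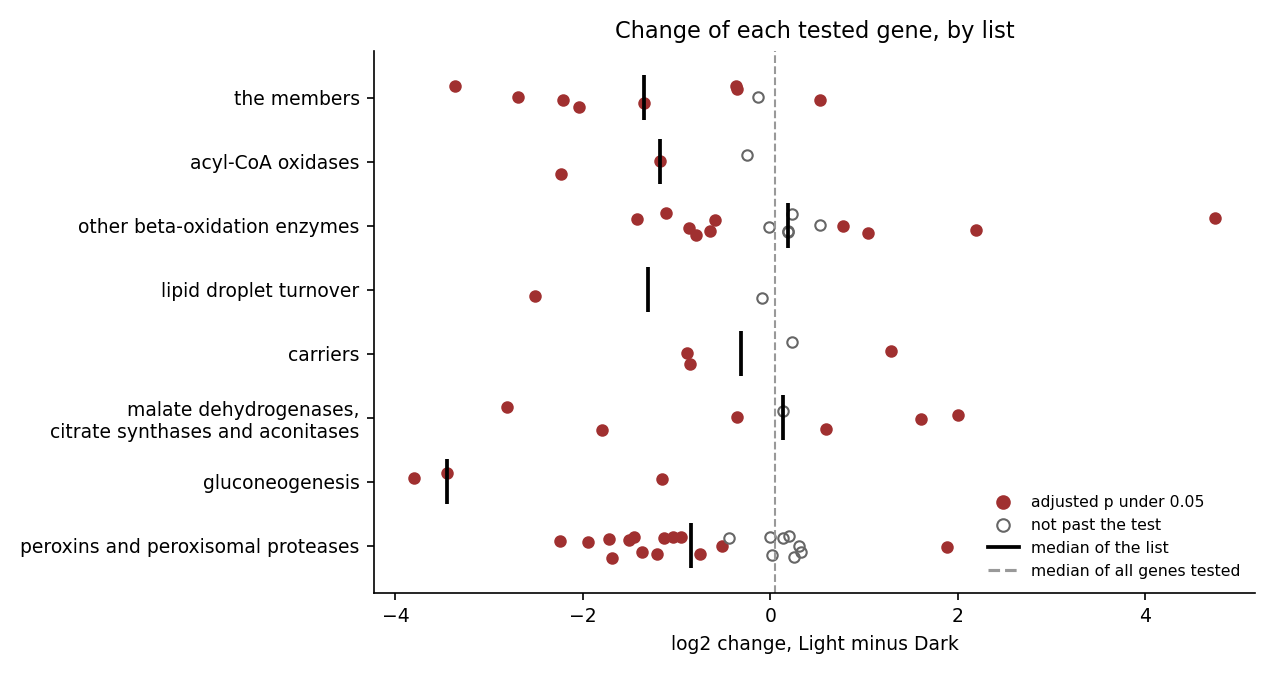
Log2 change, Light minus Dark, of every tested gene by list, with filled points for an adjusted p under 0.05, open points for genes that did not pass, black bars at list medians and a dashed line at the median of all genes tested (0.04). The members, the gluconeogenesis genes and the peroxins lie mostly left of the line, and the other beta-oxidation enzymes spread to both sides, with KAT5 farthest right.

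Poly(A) site choice was then compared within each member. Sites were the deposited clusters of neighbouring ends, tested where they held at least 5% of a gene's reads, and each position is the one the authors deposited, on TAIR10. By edgeR's differential usage test with Simes' method, site usage had changed in 5 of the 9 members, among them PCK1, LACS7, ACX1 and MFP2, against 25.6% of the 11085 genes tested. In each of these 4 the shares moved towards the downstream end in Light. The sites that passed in them lay 39 to 84 nt from the main site of their gene.

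In LACS7, on chromosome 5, the most distal of 3 sites, at 9747007 and 39 nt beyond the main site at 9746968, held 27.0%, 26.4% and 27.5% of reads in Light and 17.5%, 13.9% and 18.3% in Dark (adjusted p = 0.0015 for the site). The main site and the proximal site at 9746919 both had lower shares in every Light library than in every Dark library. LACS7 thus rose in amount and used its last site more.

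In ACX1, on the minus strand of chromosome 4, the site at 9424747, 46 nt upstream of the main site, held 25.0%, 24.5% and 23.8% in Light and 39.9%, 42.1% and 39.7% in Dark (adjusted p = 0.00169). The main site at 9424701 held 61.0% ± 0.256 in Light and 47.0% ± 1.26 in Dark, although this site alone did not pass (adjusted p = 0.0844). ACX1, whose amount did not pass the test, thus had changed shares, with no overlap between the groups at either site. How often the groups do not overlap over the sites of all genes is not given here.

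In PCK1, on the minus strand of chromosome 4, the last site at 17802712, 84 nt beyond the main site at 17802796, held 10.8%, 9.36% and 9.87% in Light and 6.13%, 6.87% and 6.37% in Dark (adjusted p = 8.19e-04). Because PCK1 fell so far, reads at this site were still fewer in Light, with 368 to 406 reads against 1119 to 1352 in Dark. This call was lost (adjusted p = 0.64) when only sites with at least 10% of reads were compared, which left that site out.

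In MFP2, on chromosome 3, the last site at 2166351, 47 nt beyond the main site at 2166304, held 21.0%, 24.5% and 23.8% in Light and 13.9%, 15.2% and 17.5% in Dark (adjusted p = 0.0267 for the site and 0.0389 for the gene). This call had the highest adjusted p of the 5: it was lost without any one of the 6 libraries (adjusted p = 0.0548 to 0.198) and with replicate number as a block (adjusted p = 0.0573).

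In the other 4 members the main site dominated. ICL kept 85.4% ± 4.01 of reads in Light and 86.0% ± 1.89 in Dark at 7652508 of chromosome 3, and its gene-level adjusted p was 1. ACX4 had 82.8% ± 2.93 in Light and 82.1% ± 0.64 in Dark at 19225396 of chromosome 3 (gene-level adjusted p = 0.487). KAT2 had 81.3% ± 1.19 in Light and 83.0% ± 0.154 in Dark at 14047573 of chromosome 2 (adjusted p = 0.108). AIM1 had 73.1% ± 0.796 in Light and 68.4% ± 1.17 in Dark at 14297104 of chromosome 4 (adjusted p = 0.442). At the main sites of KAT2 and AIM1 the groups did not overlap, although neither gene passed. With sites down to 2% of reads included, ACX4 (adjusted p = 8.27e-04) and KAT2 (adjusted p = 2.53e-04) also passed.

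**Figure D4:**
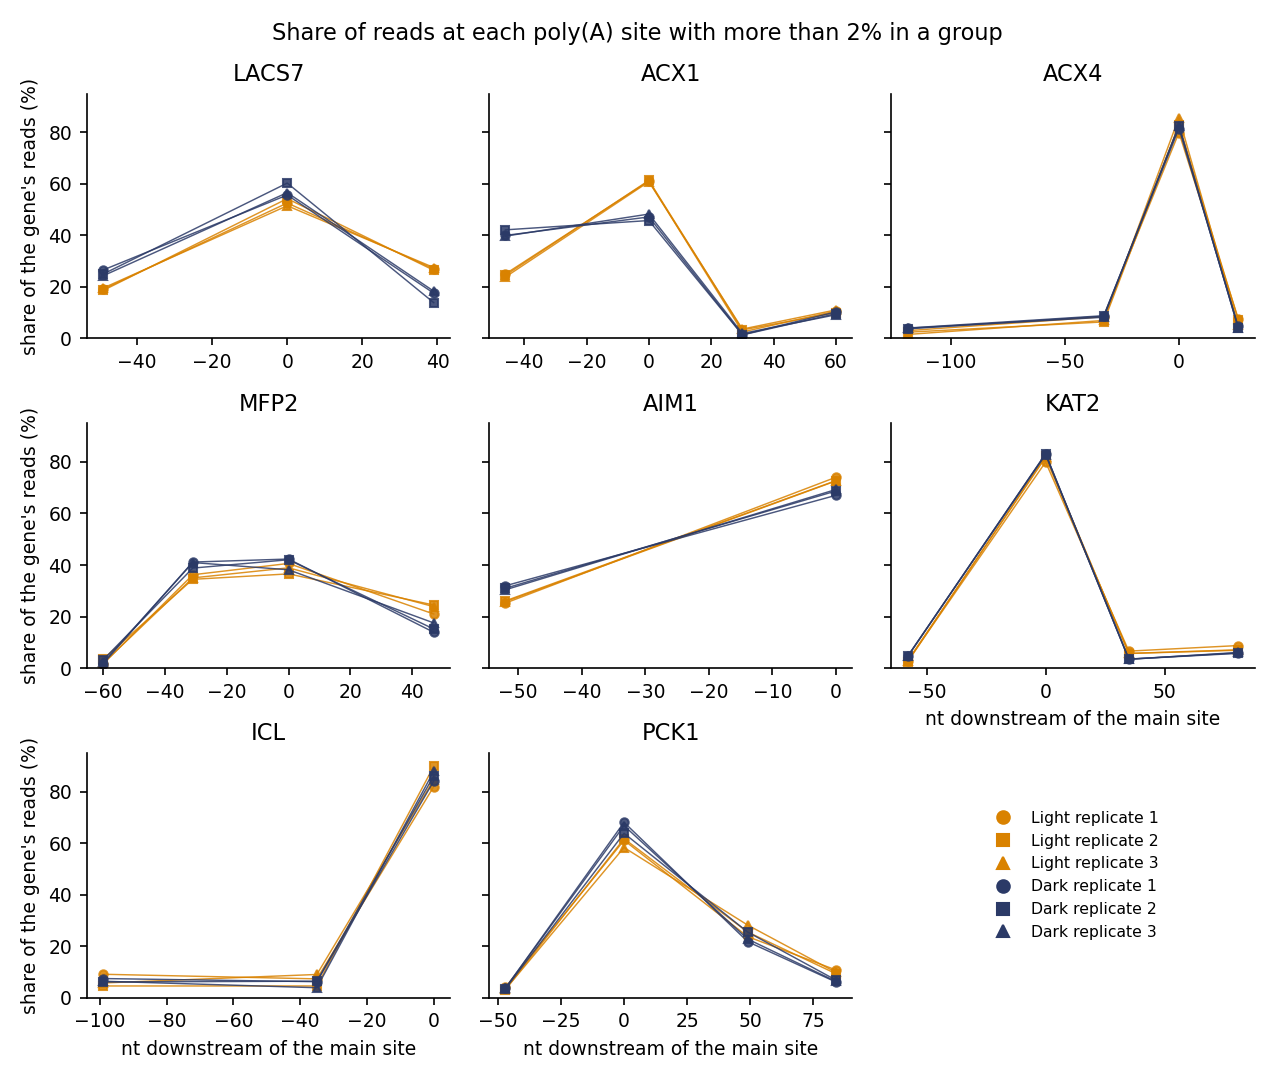
Share of a gene's reads at each poly(A) site with more than 2% in a group, against the distance in nt downstream of the gene's main site, with 1 line per library. The Light lines lie above the Dark lines at the last site of LACS7, MFP2 and PCK1 and below them at the upstream site of ACX1, and all 6 lines of ICL run close together.

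A mean end position, the average position of a gene's reads within its terminal stretch, was added after these shares had been seen. It was further downstream in every Light library than in every Dark library in 7 of the 9 members, against 39.7% of 10385 genes with at least 50 reads per library, and further upstream in none of the 9, against 9.99%. The shift from the mean of Dark was 8.99 nt in ACX1, 7.67 nt in LACS7, 4.93 nt in MFP2, 4.24 nt in PCK1, 3.95 nt in KAT2, 3.33 nt in ACX4 and 2.09 nt in AIM1. In ICL it was -0.13 nt, with overlapping groups. The median shift was 4.24 nt over the members and 1.76 nt over all genes, so a downstream shift was common in these libraries. The lower and upper quartiles over all genes were -0.50 and 6.21 nt. ACX1 and LACS7 lay above the upper quartile, and the other shifts given here lay between the quartiles. The share of genes with separate groups was higher among genes with more reads, at 47.9% with at least 200 reads per library, and the members are read more deeply than most genes. The downstream shift accompanied lower amounts in PCK1, KAT2, ACX4 and AIM1 and a higher amount in LACS7.

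**Figure D5:**
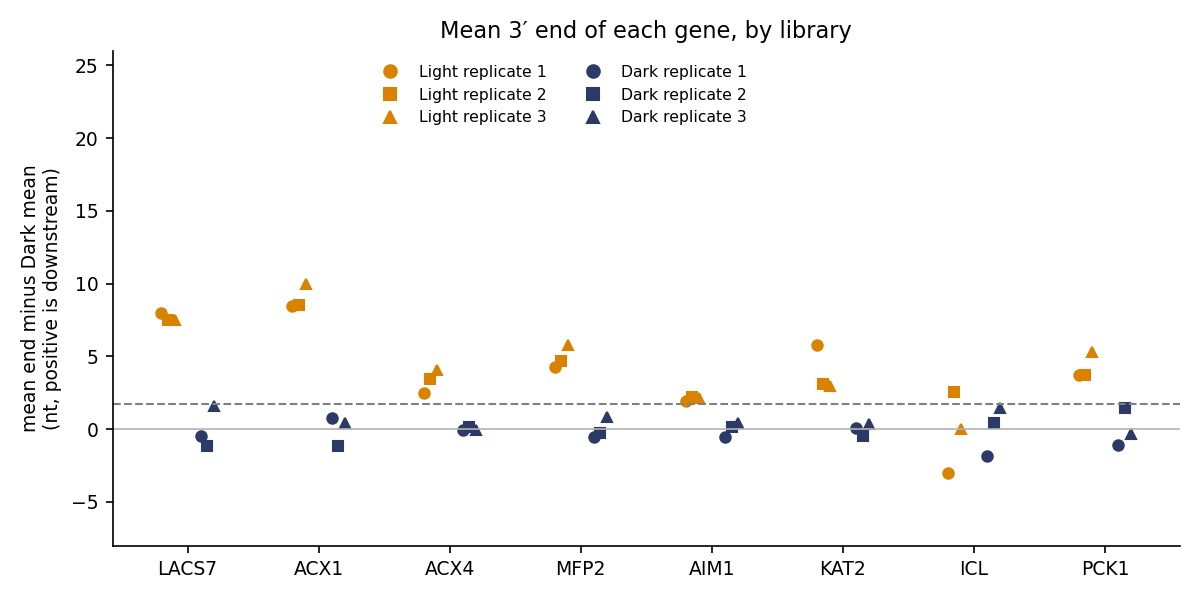
Mean 3′ end of 8 members in each library, in nt relative to the mean of its Dark libraries, with positive values downstream. The dashed line is the median shift of all genes (1.76 nt). All Light points lie above all Dark points except in ICL.

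Ends far inside the members were rare. Taking the farthest downstream cluster that held 10% or more of a gene as its end, and looking beyond the 400 nt before it, no member had more than 5 reads in any library. None of the 9 could therefore be tested for a changed upstream share, while 44.4% of the 800 genes that could be tested had one.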

How the data were processed

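The deposited table holds the authors' raw read counts per poly(A) site cluster, with no normalization, per the file headers; Bowtie2 and TAIR10 are named in the submitters' processing notes, and neither names the clustering rule or read filters. Its cluster positions (other values) are used as deposited. Members and lists were chosen with earlier results of these data known. Gene spans and names came from a RefSeq table on TAIR10.1, which gives no strand. Strand was taken from reads near the gene ends (at least 20 reads, 90% on 1 strand). Clusters on that strand, within the gene or up to 200 nt past its end, were summed, and clusters of 2 genes were left out; 97.0% of reads were assigned.

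Genes were tested with edgeR 4.0.16 in R 4.3.3 (TMM, filterByExpr with a minimum count of 10 and total of 15, quasi-likelihood F-test, Light minus Dark, Benjamini-Hochberg over all genes, threshold 0.05). SEs of log2 changes were derived from the F statistic. Site usage was tested with diffSpliceDGE. Both tests were run on simulated counts with a single level of noise and few changed genes, a simpler setting than these data. The simulated site changes were larger than those of the members, so that run does not cover them. DESeq2 1.42.0 was an alternative. Depth was 13.20 to 14.53 M reads; whether duplicate reads were collapsed is not stated. No 2 libraries were identical, and replicate pairs differed by more than sampling noise (chi-square per degree of freedom 6.24 to 26.9). Same-numbered Light and Dark libraries deviated together at correlations of 0.06, -0.002 and 0.08, so the numbers were not taken as pairs. Named genes were all members, the 2 called genes with the largest rise and fall of each list, and isoforms of member enzymes. Sequences were not used here, and 1 member and 2 listed genes are not reported here by name.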

Additional observations from a re-analysis of the deposited data

How the results depend on the processing

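Over the alternatives, 7 to 9 members and 38 to 46 listed genes were called. When libraries were scaled by their totals, the direction turned in genes called under at least 1 of the scalings, namely MFP2 (0.090), ACX1 (0.32), ACO1 (0.10), DCI1 (0.44) and DEG15 (0.45 on the log2 scale). Genes called under neither, such as ACX3 and AT4G24160, also turned. Leaving out each library gave 7 to 9 members called, with 7 without Light replicate 2 (MFP2 lost) and 9 without Light replicate 1 (ACX1 gained), and 11499 to 12345 genes in all. It gave 4 members with changed site usage each time, 1981 to 2865 genes with changed usage, 318 to 398 with a changed upstream share, and 7 to 8 members with a mean end downstream. Among the listed genes, leaving out Light replicate 1 lost the call of ACO1 (log2 change -0.25, edgeR adjusted p = 0.0936). Leaving out Light replicate 2 lost it too (-0.35, adjusted p = 0.0593). PEX6 was called lower in Light without Light replicate 1 (-0.61, adjusted p = 0.0496) and also without Dark replicate 3 (-0.65, adjusted p = 0.0244). When clusters within 50 nt were merged, 578 genes had changed usage and 0 members did, since each member then kept a single site and could not be tested. The fit with a replicate block, although the numbers do not pair the samples, called 12093 genes, 8 members and 2713 genes with changed usage, with MFP2 the member lost of 5. DESeq2 called 11686 genes and 8 members. The ratio of KAT2 to KAT5 changed by -5.29 with 2 CPM added and -6.25 with 0.5. Depth limits MLS, ACX6 and PCK2.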

Other observations

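Of the members, AIM1 and ACX4 face a neighbouring gene end to end. The main end of AIM1, on the minus strand of chromosome 4 at 14297104, lay 39 nt from that of AT4G29000, on the plus strand at 14297065. AT4G29000 stood at 18.0 ± 1.73 CPM in Light and 21.6 ± 2.98 CPM in Dark (SD, n = 3 each; edgeR adjusted p = 0.105), beside the 2.55-fold fall of AIM1. The main end of ACX4, on the minus strand of chromosome 3 at 19225396, lay 145 nt from that of SAC8 (AT3G51830), on the plus strand at 19225251. SAC8 was rare, at 1.20 ± 0.191 CPM in Light and 2.46 ± 0.32 CPM in Dark (log2 change -1.03, adjusted p = 0.00722). Reads on the opposite strand inside AIM1, not scaled for depth, numbered 222, 168 and 225 in Light and 164, 217 and 212 in Dark. AT4G29000 is read from that strand, and whether these are its own reads was not tested. Inside PCK1 at most 9 reads in a library were on the opposite strand, and inside the other 7 tested members there were 0.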
